A study of Homo sapiens with 10 samples.

Results

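Claudins are the membrane proteins that form the strands of tight junctions. The list described here holds CLDN1, CLDN2, CLDN3, CLDN4, CLDN7, CLDN8, CLDN10, CLDN12, CLDN16 and CLDN23, which are 10 of the 58735 genes in the count table, taken as the rows that carry these gene names. Each of the 10 was found once. The counts come from RNA sequencing of A253 cells, a human line from a squamous cell carcinoma of the salivary gland, in 3 groups of 2 libraries. The control carried a guide RNA against dTomato, a gene that human cells lack, and Cl1 and Cl10 are single-cell clones, each with exon 2 of DUSP1 deleted on a single allele, made with Cas9 and a pair of guide RNAs. Cas9 and the guides came from lentiviral vectors. The paper reports that neither clone showed DUSP1 protein. The deletion is represented by these 2 clones, each grown from 1 cell. A difference between a clone and the control therefore cannot be told apart from a difference between single cells of the parent line. Nothing in the labels says that the 2 libraries of a group came from separate cultures, so the p-values measure the spread between these libraries, which may be technical.

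A claudin crosses the membrane 4 times and binds claudins of the neighbouring cell through its outer loops, and the set of claudins that a cell makes sets which ions and solutes pass between cells. Some claudins seal the junction, as CLDN1, CLDN3 and CLDN4 do, while others form pores, as CLDN2 and CLDN10 do. Inside the cell most claudins bind scaffold proteins such as TJP1 and TJP3 through the end of their tail. In epithelial cancers, claudins have been described both as lost and as raised, and the transcription factors of the SNAIL and ZEB families are known to repress several of their genes through the sequence CAGGTG.

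Library totals lay between 47016495 and 70986593 counts. DUSP1, the targeted gene, had 690 ± 77.1 normalized counts in the control, 329 ± 35.2 in Cl1 and 455 ± 56.6 in Cl10 (SD, n = 2 in each group), and passed the test as lower in both clones (adjusted p = 0.000292 and 0.0113, edgeR's quasi-likelihood test). Of the 8 epithelial markers checked, none was under 10 counts in every library, whereas all 4 markers of salivary acinar cells were, as were 3 of 5 leukocyte markers. The summed epithelial markers ran from 755200 to 788500 normalized counts in the control, from 860900 to 865900 in Cl1 and from 717500 to 747800 in Cl10. Single markers moved in different directions. CDH1 passed as higher in both clones (0.84 in Cl1 and 0.35 in Cl10 on the log2 scale). KRT8 (-1.33) and KRT18 (-0.85) passed as lower in Cl10. Against the control, no other of the 8 passed, where 25.1% of all genes passed in Cl1 and 42.5% in Cl10. The part of the epithelial markers in the claudin differences was not tested. The 4 fibroblast markers summed to 2577 and 2910 normalized counts in the control, 2651 and 2826 in Cl1 and 1746 and 1845 in Cl10. The leukocyte markers summed to between 356.1 and 402.1 normalized counts in the control, 596.2 and 798.3 in Cl1 and 503.7 and 569.8 in Cl10, and the 3 endothelial markers to between 157 and 253.8, 327 and 446.2, and 184.3 and 238.7. Among the defining markers, PECAM1 (endothelial) was at 0 in both Cl1 libraries and CD3E (T cells) in both Cl10 libraries, while the acinar genes PRB1 and AMY1A were at 0 in the control and Cl1 libraries. Other markers of the same lists were higher in a clone: CD14 in both (374 normalized counts in the control, 679 in Cl1 and 524 in Cl10), VWF in Cl1 (382 against 199 in the control) and CDH5 in Cl10 (27.3 against 5.65). CDH5 entered that test through its counts in Cl10 alone, where the libraries had 40.28 and 14.36 normalized counts. The leukocyte genes PTPRC and LYZ were too rare to be tested against the control. PTPRC averaged 1.92 normalized counts in the control, 10.1 in Cl1 and 8.01 in Cl10, and LYZ 1.075, 6.343 and 4.465. The part of these markers in the claudin differences was likewise not tested. In bulk RNA, fewer cells that express a gene and less of its RNA in each cell cannot be told apart. Counts were normalized with TMM factors and set to the average size of a library. A gene is said to have passed, risen or fallen where the adjusted p (edgeR, Benjamini-Hochberg over all genes tested) was under 0.05.

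The stretches of DNA just before a transcript start of 4 of the claudin genes are shown because these genes carried the main results. CLDN1 rose in both clones, CLDN2 went in opposite directions, and CLDN4 and CLDN7 were the most abundant. For CLDN1, CLDN4 and CLDN7 the start is that of the canonical transcript, and for CLDN2 it lies 20238 bases from that start. The CLDN4 and CLDN7 stretches lie inside the annotated bounds of these genes. Sequences are from RefSeq (GRCh38.p14), 5′ to 3′ on the strand of the gene. Capitals mark GGGCGG before CLDN1, TGANTCA before CLDN2 and CLDN4, and CAGGTG before CLDN7, each searched on both strands. Longer stretches are left out where an exon of another transcript covers them.
CLDN1, chr3:190322447-190322540, minus strand, the 94 bases before the start: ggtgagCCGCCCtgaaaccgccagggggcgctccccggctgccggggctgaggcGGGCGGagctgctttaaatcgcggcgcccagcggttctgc
CLDN2, chrX:106900093-106900122, plus strand, bases 71 to 42 before the upstream start: tatttttctccTGATTCAtctcatgccaac
CLDN4, chr7:73830746-73830775, plus strand, bases 250 to 221 before the start: ctgggctgTGATTCAgtgtctgtctcccgg
CLDN4, chr7:73830824-73830853, plus strand, bases 172 to 143 before the start: agactggatagTGACTCAgggacccggggc
CLDN7, chr17:7262479-7262508, minus strand, the 30 bases before the start: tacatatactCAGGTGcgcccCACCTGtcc

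A promoter entry was found for 8 of the 10 claudins. The 250 bases before the CLDN7 start held 4 matches to CAGGTG, of which the 2 nearest the start are shown, and 0.122% of 35116 promoters of that length held as many; 17.5% held at least 1. No other claudin entry held this sequence. The CLDN1 window held 2 matches to GGGCGG (42.6% of promoters hold at least 1) and none to CANNTG, the wider pattern that includes CAGGTG (61.8%). More matches to GGGCGG lay before CLDN3 (4) and before the canonical CLDN10 start (3). The CLDN4 window held 2 matches to TGANTCA, the recognition sequence of AP-1 factors, of which 6.57% of promoters hold at least 1. The upstream CLDN2 window held 1, as did the upstream CLDN16 window. AACCNGTT, the sequence bound by grainyhead-like factors, was in no claudin entry (1.49% of promoters). A match is a run of letters and not evidence that a factor binds there.

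CLDN4 and CLDN7 made up most of the claudin RNA in A253 cells. Per length of the merged exons, CLDN7 stood at 65.1 ± 4.84 RPKM in the control and CLDN4 at 50.8 ± 3.34 (SD, n = 2). With the length of the canonical transcript in its place the order turned, with 141 ± 9.25 RPKM for CLDN4 and 105 ± 7.81 for CLDN7, so the order of these 2 genes cannot be given. CLDN12 (6.89 ± 0.21 RPKM), CLDN1 (3.97 ± 0.02) and CLDN23 (1.62 ± 0.19) followed among the 10, in this order with either length. CLDN2 (0.126 ± 0.054), CLDN16 (0.0968 ± 0.0059) and CLDN3 (0.0498 ± 0.0541) were near the lower end of detection, and these neighbours in the order did not differ beyond their spread. CLDN10 stood at 0.0105 ± 0.0086 RPKM, and no count of CLDN8 was found in the control.

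**Figure D1:**
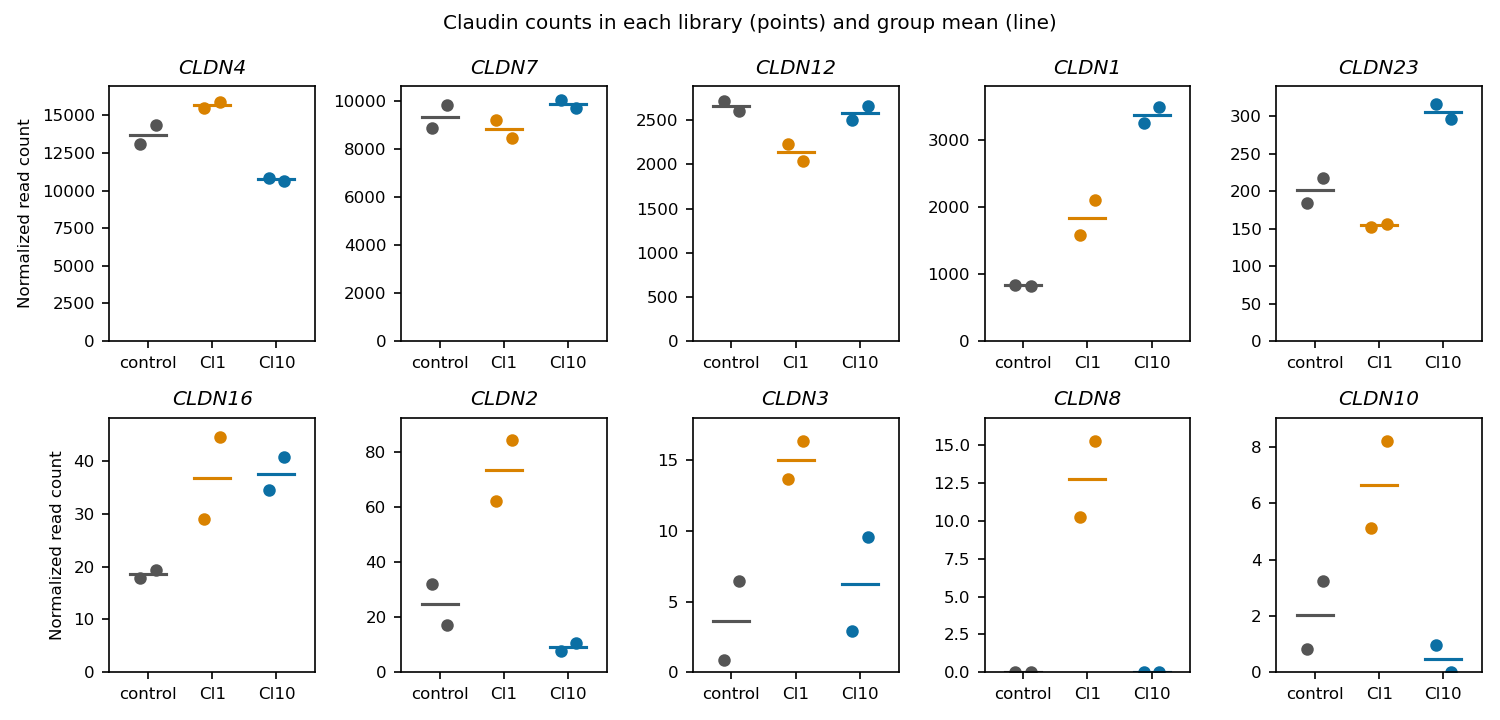
Normalized read counts (vertical axes, linear, starting at 0, a different scale for each gene) of the 10 claudins in the control, Cl1 and Cl10; each point is a library and each line the mean of 2 libraries. CLDN1 rises from about 828 in the control to 1839 in Cl1 and 3374 in Cl10, and CLDN8 has counts only in Cl1.

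Of the 10 claudins, 9 had enough counts to be tested in Cl1 against the control. In this comparison 4 rose (CLDN1, CLDN2, CLDN3 and CLDN8) and 1 fell (CLDN12), that is 5 of 9, where 25.1% of 20153 genes passed over the whole table, 12.4% as higher and 12.8% as lower. CLDN3 and CLDN8 entered the test through their counts in Cl1 alone, so they had to differ to be tested at all. In Cl10 against the control, 7 were tested. CLDN1, CLDN16 and CLDN23 rose and CLDN2 and CLDN4 fell, against a background of 42.5% of 19875 genes passing, 20.6% higher and 21.8% lower, and CLDN2 entered this test through the control alone. Over the 7 claudins that met the filter on low counts in both groups, the median log2 fold change was 0.20 in Cl1. Over 6 such claudins it was 0.35 in Cl10. The median over all genes tested was -0.01 in either comparison, and includes genes that met the filter in 1 group only. With the claudins that met it in 1 group only, the claudin medians were 0.97 and 0.08, values that the filter helped to set. With an absolute log2 fold change above 1 also required, 4 claudins passed in Cl1 and 3 in Cl10, where 7.54% and 13.4% of all genes did. Both clones were compared with the same 2 control libraries, so the values of the clones are not independent of each other. CLDN1 was the only claudin of the list that passed in the same direction in both clones.

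**Figure D2:**
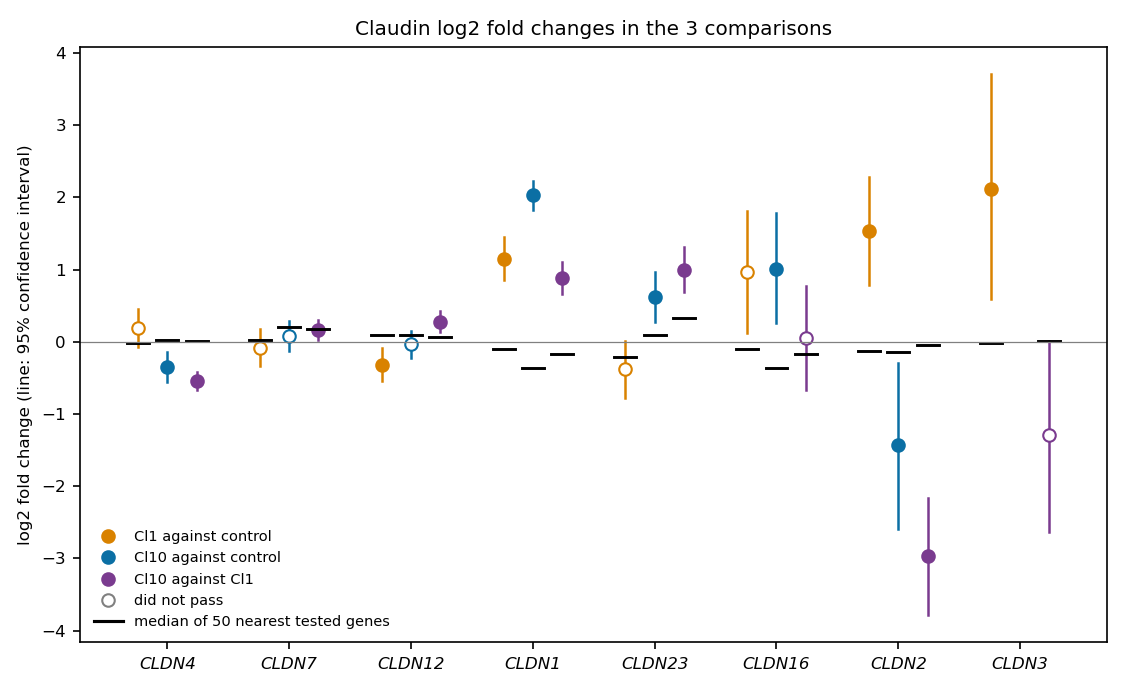
Log2 fold changes (vertical axis) of the 8 claudins with counts in both groups of a tested comparison, with 95% confidence intervals as lines; filled points passed at an adjusted p under 0.05 and open points did not, and black bars give the median of the 50 nearest tested genes on the chromosome. CLDN1 lies above 1 in Cl1 and above 2 in Cl10, and CLDN2 lies on opposite sides of 0 in the clones.

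CLDN1, which seals tight junctions and without which the epidermis leaks water, rose in both clones and more in Cl10. It had 831.5 and 824.6 normalized counts in control replicates 1 and 2, 1581 and 2098 in Cl1, and 3258 and 3491 in Cl10. The 3 groups did not overlap. The log2 fold change was 1.15 in Cl1 (SE 0.138, adjusted p = 0.000102, edgeR), which is 2.22-fold, and 2.03 in Cl10 (SE 0.0843, adjusted p = 2.79e-05, edgeR), which is 4.09-fold. Between the clones CLDN1 was higher in Cl10 by 0.89 on the log2 scale (SE 0.103, adjusted p = 1.66e-05, edgeR). CLDN1 passed in all 3 comparisons with each library left out in turn.

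CLDN1 (ENSG00000163347) lies at chr3:190305707-190322446 on the minus strand of hg38, and the CLDN16 gene (chr3:190322541-190412138, plus strand) begins 95 bases before its start and runs the other way. The canonical CLDN16 transcript starts further on, at position 190388163. CLDN16, a claudin of the renal tubule where magnesium is taken back, had 17.76 and 19.35 normalized counts in the control, 29.03 and 44.51 in Cl1, and 34.39 and 40.68 in Cl10. Every clone library lay above both control libraries, and the clones overlapped. Its log2 fold change was 1.01 in Cl10 (SE 0.325, adjusted p = 0.0406) and 0.97 in Cl1 (95% confidence interval 0.13 to 1.82, adjusted p = 0.0877), which did not pass in edgeR. The call in Cl10 was lost with any 1 of the 4 libraries left out, with values from 0.89 (without Cl10 replicate 2) to 1.14 (without Cl10 replicate 1) and adjusted p up to 0.214 (edgeR), and with DESeq2 (adjusted p = 0.187).

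The rise of CLDN1 stood apart from the genes around it. Of the 50 tested genes nearest to it, 1 had a higher log2 fold change in Cl1 and none in Cl10. Their median was -0.09 in Cl1 and -0.37 in Cl10. Why CLDN1 differed from these 50 genes was not tested. CLDN16, counted among these 50, was exceeded by 3 of its own 50 neighbours in Cl1 and by 2 in Cl10.

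**Figure D3:**
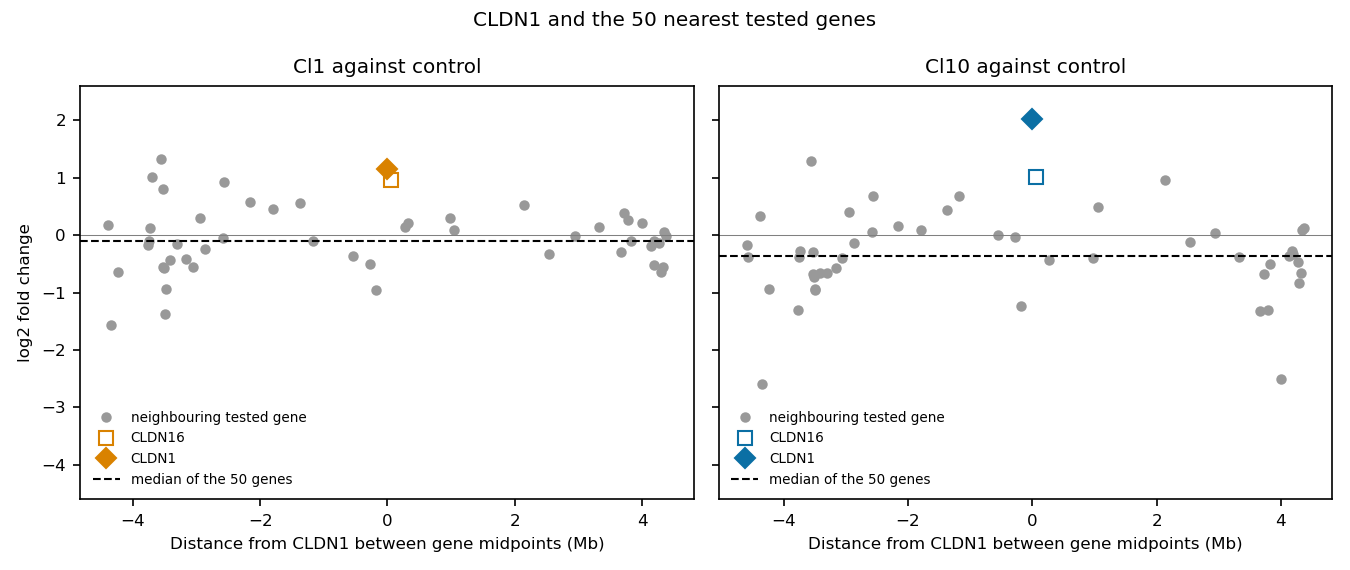
Log2 fold change (vertical axis) of CLDN1, CLDN16 and the other tested genes among the 50 nearest to CLDN1, against the distance between gene midpoints in Mb (horizontal axis), for each clone against the control; dashed lines mark the median of the 50 genes. In Cl10 no neighbour reaches CLDN1, whose value is 2.03, and the median is -0.37.

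CLDN2, which forms a pore for cations and water, went up in Cl1 and down in Cl10. It had 32.14 and 17.2 normalized counts in the control, 62.33 and 84.33 in Cl1, and 7.86 and 10.77 in Cl10, and the 3 groups did not overlap. The log2 fold change was 1.53 in Cl1 (SE 0.348, adjusted p = 0.00683, edgeR) and -1.43 in Cl10 (SE 0.488, adjusted p = 0.0496, edgeR). Cl10 against Cl1 gave -2.96 for CLDN2 (SE 0.374, adjusted p = 3.16e-05, edgeR), and all 50 nearest tested genes had higher values. CLDN2 entered that test through its counts in Cl1 alone, so it had to differ to be tested. The fall in Cl10 rests on 8 and 9 raw counts against 38 and 16, and CLDN2 met the filter on low counts in the control but not in Cl10. It no longer passed without control replicate 1, where it was -0.89 (adjusted p = 0.324, edgeR), without Cl10 replicate 1 (-1.199, adjusted p = 0.195) or without Cl10 replicate 2 (-1.65, adjusted p = 0.0761), nor with DESeq2 (adjusted p = 0.175). CLDN2 (chrX:106900164-106930861) shares 341 exon bases with RIPPLY1 on the other strand, and whether the counting used strand is not given in the sources used here.

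CLDN4, a sealing claudin of many epithelia, fell in Cl10. It had 13090 and 14370 normalized counts in the control, 15520 and 15890 in Cl1, and 10850 and 10630 in Cl10, so that the clones lay on either side of the control with no overlap. The log2 fold change in Cl10 was -0.35 (SE 0.0861, adjusted p = 0.0162, edgeR), and that in Cl1 was 0.20 (95% confidence interval -0.07 to 0.46, adjusted p = 0.263), which did not pass. Cl10 against Cl1 gave -0.54 (SE 0.0584, adjusted p = 8.69e-06, edgeR). The call against the control was lost when either Cl10 library was left out, at -0.36 without replicate 1 (adjusted p = 0.229, edgeR) and -0.34 without replicate 2 (adjusted p = 0.267).

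CLDN7, which lies along the sides of epithelial cells and binds the adhesion protein EPCAM, passed against the control in neither clone. The control libraries had 8844 and 9825 normalized counts, those of Cl1 9172 and 8432, and those of Cl10 10020 and 9684. The control overlapped each clone, and the clones did not overlap each other. The 95% confidence interval of the log2 fold change was -0.34 to 0.18 in Cl1 and -0.12 to 0.29 in Cl10. With a library left out, the value in Cl10 ran from 0.001 to 0.154, and whether it passed depended on the library left out. Cl10 against Cl1 gave 0.17 (SE 0.0621, adjusted p = 0.042, edgeR), where the 50 nearest tested genes had a median of 0.18. The call between the clones was lost without Cl1 replicate 2 (0.10, adjusted p = 0.0658, edgeR), without Cl10 replicate 1 (0.14, adjusted p = 0.329) and without Cl10 replicate 2 (0.19, adjusted p = 0.182). CLDN7 (chr17:7259903-7263983, minus strand) shares 269 exon bases with another gene on the same strand, ENSG00000262302.

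CLDN12, an unusual claudin whose tail lacks the motif that binds TJP proteins, was lower in Cl1 than elsewhere. It had 2717 and 2603 normalized counts in the control, 2226 and 2044 in Cl1, and 2503 and 2667 in Cl10. Cl1 lay below both other groups, which overlapped each other. The log2 fold change was -0.31 in Cl1 (SE 0.108, adjusted p = 0.0497, edgeR) and -0.04 in Cl10 (adjusted p = 0.744). Cl10 against Cl1 gave 0.28 (SE 0.0676, adjusted p = 0.00444, edgeR), or 0.24 without Cl10 replicate 2, which did not pass (adjusted p = 0.0821). The call in Cl1 sat at the threshold and was lost without Cl1 replicate 1 (-0.38, adjusted p = 0.186, edgeR) or Cl1 replicate 2 (-0.25, adjusted p = 0.425), and with DESeq2 (adjusted p = 0.0642). CLDN12 (chr7:90383721-90513402) shares exon bases with 4 other genes on its strand, among them GTPBP10 (347 bases).

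CLDN23, a claudin encoded by a single exon on chromosome 8, rose in Cl10. The control libraries had 184.4 and 218.3 normalized counts, those of Cl1 152.8 and 155.8, and those of Cl10 316.3 and 296.7, with no overlap. The log2 fold change was 0.62 in Cl10 (SE 0.146, adjusted p = 0.0138, edgeR) and -0.38 in Cl1 (adjusted p = 0.15), which did not pass. Without Cl10 replicate 1 the value in Cl10 was 0.57 (adjusted p = 0.0592, edgeR). Cl10 exceeded Cl1 by 1.00 on the log2 scale (SE 0.143, adjusted p = 9.52e-05, edgeR), and the 50 nearest tested genes had a median of 0.33 in that comparison.

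The remaining 3 claudins were rare. CLDN8, a claudin of the distal nephron, had 0 counts in both control and both Cl10 libraries and 12 and 13 counts in Cl1. With a floor of 3 counts per library in the groups at 0, the Cl1 mean was 4.42-fold the floor of the control and 3.9-fold that of Cl10. These ratios leave out the counting error of Cl1, whose 25 summed counts have a 95% Poisson interval of 16.2 to 36.9. CLDN8 passed in Cl1 against the control (adjusted p = 0.00286, edgeR), a test it entered through Cl1 alone. It was not tested in Cl10 against the control or against Cl1.

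CLDN3, a sealing claudin that neighbours CLDN4 at a distance of 29271 bases on chromosome 7, had 1 and 6 counts in the control, 16 and 14 in Cl1, and 3 and 8 in Cl10. The control and Cl10 overlapped and Cl1 lay above both. The log2 fold change in Cl1 was 2.11 (SE 0.719, adjusted p = 0.0448, edgeR). It was 1.19 without control replicate 1 (adjusted p = 0.293, edgeR), 2.24 without Cl1 replicate 1 (adjusted p = 0.135) and 1.98 without Cl1 replicate 2 (adjusted p = 0.173), and none of these passed; without control replicate 2 it was 3.97 and passed. CLDN10, which forms ion pores in 2 main forms, had 1 and 3 counts in the control, 6 and 7 in Cl1, and 1 and 0 in Cl10. It was tested in no comparison, and 1558 of its exon bases are shared with DZIP1 on the other strand. The highest normalized counts of CLDN2, CLDN3, CLDN8 and CLDN10 were all in Cl1 libraries, as were those of CLDN4 and CLDN16. Those of CLDN1, CLDN7 and CLDN23 were in Cl10 libraries, and that of CLDN12 was in a control library. This order was seen after the fact and was not tested.

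Compared directly, the clones differed in most of the claudins. Of 8 tested in Cl10 against Cl1, 4 were higher in Cl10 (CLDN1, CLDN7, CLDN12 and CLDN23) and 2 were lower (CLDN2 and CLDN4), beside 49% of 19818 genes over the whole table, 24.9% higher and 24.1% lower. Only CLDN2 among them also passed an absolute log2 fold change of 1, as 10.8% of all genes did. CLDN16 gave 0.05 (adjusted p = 0.913) and CLDN3 -1.29 (adjusted p = 0.094), and neither passed in edgeR. Over the 6 of these 8 that met the filter on low counts in both clones, the median was 0.22. This leaves out CLDN2 and CLDN3, which met it in Cl1 alone. Over all 8 the median was 0.11, beside 0.00 over all genes tested, whether these met the filter in 1 clone or both.

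The make-up of the claudin RNA shifted towards CLDN1. Over all 24 claudins in the table, CLDN1 made up 2.93% of the summed RPKM in the control, 6.06% in Cl1 and 11.4% in Cl10, with merged exon lengths. With canonical transcript lengths these shares were 1.5%, 3.11% and 6.34%. With merged exon lengths the share of CLDN4 was 37.4% in the control, 39.9% in Cl1 and 28% in Cl10, and that of CLDN7 was 48%, 42.2% and 48.5%. With canonical transcript lengths CLDN4 made up 50.3%, 53.9% and 41%, and CLDN7 37.6%, 33.2% and 41.3%. Per merged exon length, the summed claudin RPKM was 129.7 and 141.7 in the control, 146.4 and 144.5 in Cl1, and 142.5 and 140.9 in Cl10. The ranges of the control and Cl10 overlapped, and Cl1 lay slightly above both.

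**Figure D4:**
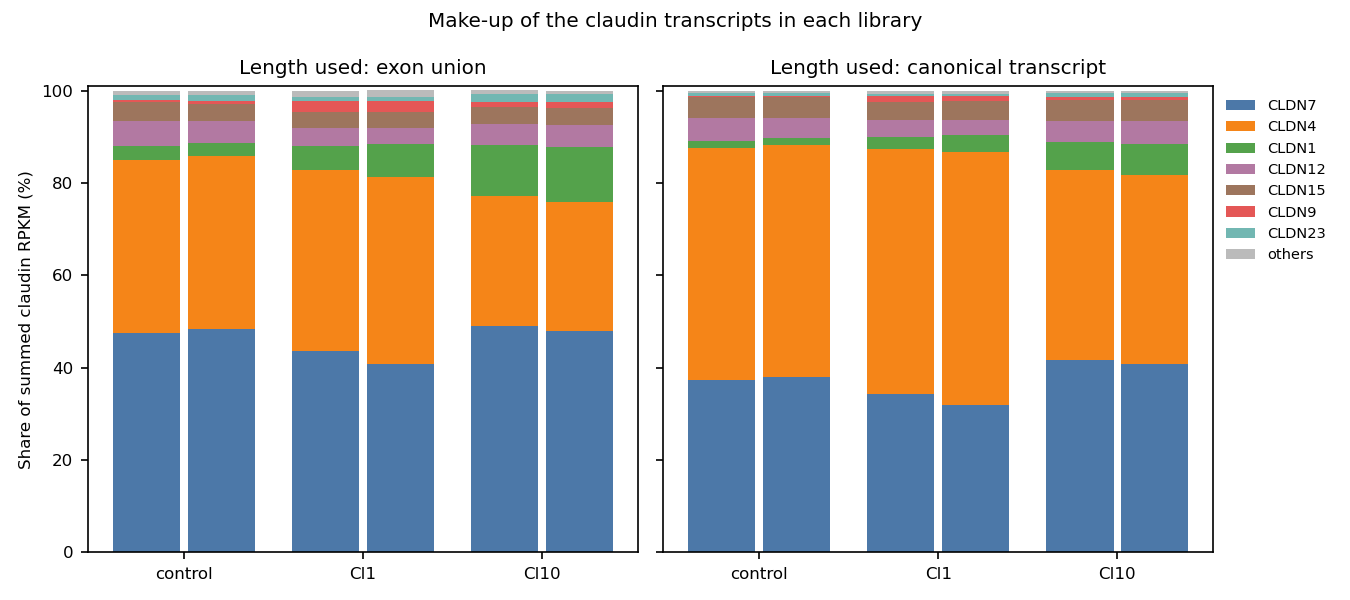
Share of each claudin in the summed RPKM of 24 claudins (vertical axis, percent, starting at 0) in each of 6 libraries, with RPKM per merged exon length (left) and per canonical transcript length (right). The CLDN1 segment widens from the control to Cl1 and Cl10 with either length, from 2.93% to 11.4% on the left and from 1.5% to 6.34% on the right, while the order of CLDN4 and CLDN7 differs between the panels.

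Of the 14 claudins outside the list, 7 were tested in each comparison. In Cl1, 2 rose and none fell, where 25.1% of all genes passed, and in Cl10, 1 rose and none fell, where 42.5% did. CLDN9, known from the inner ear, rose in both clones. It had 57.52 and 80.64 normalized counts in the control, 327 and 315.1 in Cl1, and 144.4 and 169.9 in Cl10, with log2 fold changes of 2.23 (SE 0.204, adjusted p = 1.06e-05, edgeR) and 1.199 (SE 0.228, adjusted p = 0.0058, edgeR). Cl10 lay below Cl1 by -1.03 on the log2 scale (adjusted p = 8.94e-05, edgeR), the reverse of the order seen for CLDN1. CLDN19, which pairs with CLDN16 in the renal tubule, rose in Cl1 (1.71, adjusted p = 0.0261, edgeR), where it entered the test through Cl1 alone, and in Cl10 had a log2 fold change of 1.33 that did not pass (adjusted p = 0.0706). CLDN20, which entered that test through Cl1 alone, was lower in Cl10 than in Cl1 (-1.63, adjusted p = 0.0137, edgeR) and passed against the control in neither clone. CLDN15, a pore-forming claudin and the most abundant of these 14, had between 819.9 and 906.4 normalized counts in all 6 libraries.

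Among 29 listed genes for the proteins that claudins work with, namely other junction membrane proteins, scaffolds and polarity proteins, 28 were tested in each clone against the control. In Cl1, 3 rose and 3 fell, with a median log2 fold change of 0.03, and in Cl10, 5 rose and 4 fell, with a median of 0.13, shares below the 25.1% and 42.5% of all genes. Between the clones 13 of 27 were higher in Cl10 and 8 were lower, a larger share than the 49% of all genes.

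MARVELD3, a membrane protein of the tight junction related to occludin, was alone among these in rising in both clones. It had 1644 and 1813 normalized counts in the control, 2820 and 2518 in Cl1, and 3700 and 3839 in Cl10, with log2 fold changes of 0.63 (adjusted p = 0.0017, edgeR) and 1.13 (adjusted p = 0.000171, edgeR). TJP3, a scaffold that binds claudin tails, went in opposite directions. It had 1571 and 1517 normalized counts in the control, 2112 and 2750 in Cl1 and 811.5 and 776.5 in Cl10, with log2 fold changes of 0.66 (adjusted p = 0.00318, edgeR) and -0.95 (adjusted p = 0.000288, edgeR). Cl10 against Cl1 gave -1.61 for TJP3 (adjusted p = 2.12e-07, edgeR). Chosen after their values were seen, the scaffold TJP1 fell in Cl1 (-0.53, adjusted p = 0.00891, edgeR), and JAM2, an adhesion protein at 19.55 normalized counts in the control and 1.28 in Cl1, also fell there (adjusted p = 0.00563), having met the filter on low counts in the control alone. The occludin gene OCLN, named on the same terms, passed against the control in neither clone.

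**Figure D5:**
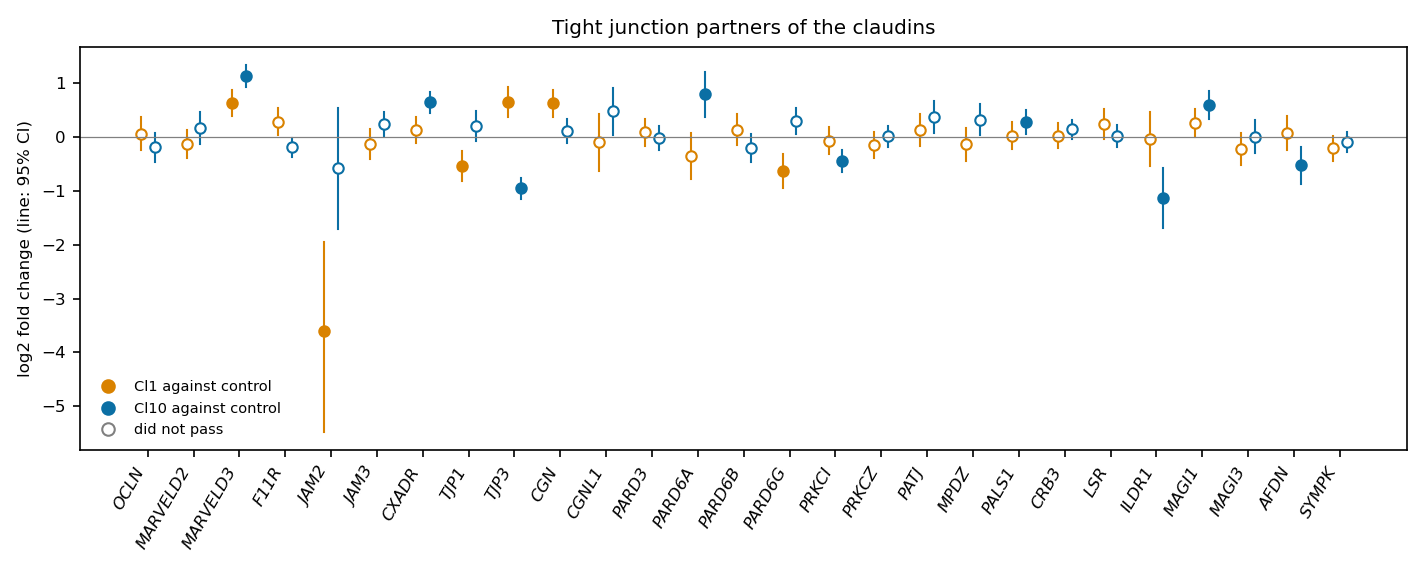
Log2 fold changes (vertical axis) with 95% confidence intervals of 27 of the 28 tested genes for proteins that work with claudins at the tight junction, for Cl1 (orange) and Cl10 (blue) against the control; filled points passed at an adjusted p under 0.05. MARVELD3 lies above 0 in both clones, and TJP3 lies above 0 in Cl1 and below 0 in Cl10.

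Among 10 transcription factors known to act on claudin genes, 3 rose and 2 fell in Cl1, where 25.1% of all genes passed, and 4 rose and 3 fell in Cl10, where 42.5% did. ZEB1, a repressor that binds the CAGGTG sequence shown above for CLDN7, fell in both clones. It had 134.5 and 158 normalized counts in the control, 17.93 and 9.37 in Cl1, and 23.58 and 25.13 in Cl10, with log2 fold changes of -3.35 (SE 0.317, adjusted p = 1.37e-05, edgeR) and -2.57 (SE 0.232, adjusted p = 0.000287, edgeR). In Cl1 against the control, ZEB1 met the filter on low counts in the control alone. CLDN7 itself passed against the control in neither clone, and a link between ZEB1 and CLDN7 was not tested. TWIST1, another factor that acts against the epithelial state, fell by 1.07 on the log2 scale in Cl1 (adjusted p = 0.000131, edgeR) and by 1.84 in Cl10 (adjusted p = 0.000122). GRHL2, a grainyhead-like factor that activates junction genes, rose in both clones. The control libraries had 3968 and 3544 normalized counts, those of Cl1 5761 and 6160 and those of Cl10 6856 and 6913 (adjusted p = 0.00122 and 0.000441, edgeR). OVOL1, which represses ZEB1, rose by 1.19 on the log2 scale in Cl1 (adjusted p = 5.96e-05, edgeR) and by 0.75 in Cl10 (adjusted p = 0.00319). Other factors went the other way. Chosen after their values were seen, SNAI2, a repressor of the SNAIL family, rose by 0.61 on the log2 scale in Cl10 (adjusted p = 0.00321, edgeR), and GRHL1 fell by 0.87 there (adjusted p = 0.00128).

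Of 8 genes for membrane proteins and enzymes that act on claudins, 4 rose in Cl1 and none fell, where 12.4% of all genes passed as higher and 12.8% as lower, and 4 rose and 1 fell in Cl10, where 20.6% and 21.8% did. PRSS8, a membrane-bound serine protease, had 174.3 and 190.3 normalized counts in the control, 1230 and 1246 in Cl1, and 386.1 and 415.2 in Cl10. Its log2 fold changes were 2.77 (adjusted p = 1.12e-07, edgeR) and 1.14 (adjusted p = 0.000771, edgeR), and the 3 groups did not overlap. Chosen after its values were seen, EPCAM gave 0.26 in Cl1 and -0.10 in Cl10 on the log2 scale and passed against the control in neither clone.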

How the data were processed

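Poly(A) RNA was sequenced as paired-end reads, which the authors mapped with HISAT2 (genome build hg38) and assigned to genes with HTSeq. The deposited values are raw counts for 58735 genes in 6 libraries. The annotation and the strand setting are not given in the sources used here. Of the 10 samples of the series, those made for SOX2 were not used here. Symbols, coordinates and lengths came from GENCODE v44 (hg38), in which 58207 identifiers were found, with 99.91% of the counts.

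Each comparison was fitted over its own libraries with edgeR 4.0.16 in R 4.3.3 (filterByExpr, TMM, glmQLFit, glmQLFTest, two-sided), with Benjamini-Hochberg adjustment over all genes tested. Standard errors were derived from the F statistic. DESeq2 1.42.0, other scalings and filters, a fit over 6 libraries, a replicate block, subtraction of the median of the 50 nearest tested genes and leaving out each library were alternatives. With a library left out, 1 library stands alone in its group and is assumed to vary like the others. The scripts were tested on simulated data. A floor of 3 counts covers counting error only. The claudins and the gene lists were chosen with earlier results of these data known. Named beyond the 10 claudins and DUSP1 were other claudins that passed, junction partners that passed in both clones, and up to 6 genes acting on claudins that passed the same way in both. Some genes of these lists are counted but not reported here by name. Replicates of a group differed at an unadjusted p under 0.05 in 58.6% (control), 45.8% (Cl1) and 23.1% (Cl10) of genes with at least 100 counts.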

Additional observations from a re-analysis of the deposited data

Results flagged for a closer look

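The effect of the clone differed between Cl1 and Cl10, by the test of Cl10 against Cl1, for 6 claudins. CLDN1 (0.885 on the log2 scale), CLDN7 (0.166), CLDN12 (0.278) and CLDN23 (0.996) were higher in Cl10, and CLDN2 (-2.962) and CLDN4 (-0.544) were lower. CLDN2 entered the test of Cl10 against Cl1 through its counts in Cl1 alone. This comparison does not use the control libraries. With 49% of all genes passing between the clones, 6 of 8 claudins tested is read against that share. Groups of 2 libraries allowed no check for single outlying libraries.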

How the results depend on the processing

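Of 200 fold changes of claudins under other settings, 186 kept their side of the threshold, as did 74 of 94 with a library left out. CLDN7 in Cl10 against Cl1 turned to -0.0158 (adjusted p = 0.857, edgeR) when the median of the 50 nearest tested genes was subtracted. The claudins passed in Cl1 (5) became 2 with DESeq2, 2 with at least 10 counts in every library and 3 in one fit over 6 libraries, and ran from 2 to 5 with a library left out. In Cl10 (5) they became 3 with DESeq2 and 3 past an absolute log2 fold change of 1, and ran from 1 to 5. Between the clones (6) they became 1 past that fold change, and ran from 5 to 6. Past that fold change, partners fell from 6, 9 and 21 to 1, 2 and 3, and all genes from 5064, 8439 and 9706 to 1520, 2667 and 2131 (Cl1, Cl10, Cl10 against Cl1). With a library left out, partners ran from 3 to 11, 6 to 20 and 15 to 23, and genes from 2718 to 7146, 5141 to 11888 and 7240 to 10692. The cause was not tested. Scaled by library size only, genes in Cl1 split into 1942 higher and 3191 lower, against 2489 and 2575, and genes between the clones into 5910 and 3939, against 4932 and 4774. Replicate numbers did not pair the libraries (correlations of deviations -0.178, -0.123 and -0.0352). With the replicate block 4, 5 and 6 claudins and 4841, 8681 and 9894 genes passed, and with the pairing crossed, tried after seeing the data, 5 and 5 claudins and 6894 and 9927 genes passed in Cl1 and Cl10. Canonical transcript lengths moved control RPKM to 4.18 (CLDN1), 141 (CLDN4), 105 (CLDN7), 13.1 (CLDN12) and 0.108 (CLDN16). DESeq2 gave no adjusted p for CLDN3 and CLDN8 in Cl1, and CLDN10 was too rare to be tested.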
